A study of Homo sapiens with 9 samples.

Results

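Expression of 10 genes that control G1 and the G1-S transition was followed by RNA-seq in A375R cells: the D-type cyclins CCND1 and CCND3, the E-type cyclins CCNE1 and CCNE2, the kinases CDK4 and CDK6, the inhibitor CDKN1B, the phosphatase CDC25A and the transcription factors E2F1 and E2F3. The members were chosen by gene symbol from the 62710 genes of the deposited table, each symbol matched 1 row, and all 10 were among the 15230 genes with a mean normalized count of at least 10. A375R is a human melanoma cell line derived from A375 that resists the BRAF inhibitor PLX4032, a vemurafenib analog, and is kept in 2 µM of it, so that every group carried that drug background. There were 3 groups of 3 libraries each, described in the methods as biological repeats. The first group is labelled WT without a dose and corresponds to the DMSO vehicle of the design. The second was treated for 2 h with VHL-r at 10 µM (labelled VHL), which is the part that binds VHL without the rest of the molecule. The third received 10 µM R4VPL3-1, the full molecule in which a linker joins a binder of the ubiquitin ligase RNF4 to a VHL binder, also for 2 h (labelled L3linker_1). Both treatments thus share dose and time, and both are compared with the same DMSO libraries. The results describe a single cell line.

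In G1, D-type cyclins bind CDK4 and CDK6 and carry mitogenic signals to the retinoblastoma protein, whose phosphorylation releases E2F transcription factors. E2F1 and E2F3 then drive genes for DNA replication, among them the E-type cyclins, which bind CDK2 and carry the cell into S phase. CDKN1B (p27) binds and inhibits cyclin E-CDK2, while CDC25A removes inhibitory phosphates from CDK2. In BRAF-mutant melanoma, CCND1 is a well known output of the MAPK pathway.

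Promoters are shown first, because E2F factors are known to bind the promoters of several of these genes, including their own. RefSeq promoter sequences (GRCh38.p14, 250 bases before to 50 bases after each start) were found for 8 of the 10 genes, and CCND1 and CCNE2 had none in the table. A search for the E2F words TTTGGCGC, TTTCGCGC, TTTCCCGC and TTTGCCGC on both strands found them in 3 of the 8, namely E2F3, E2F1 and CDC25A, against 3.33% of all 27305 promoters of the same length. The E-box CACGTG, the word bound by MYC and related factors, lay 3 times in the CDK4 promoter and 1 time in that of CDK6, and 7.43% of all promoters hold it. The AP-1 word TGACTCA (or TGAGTCA, the same site on the other strand) and the CRE word TGACGTCA were in none of the 8, against 4.92% and 1.98% of all promoters. CCAAT, on either strand, was in 4 of the 8 (35.7% of all) and the GC box GGGCGG in 8 (44.6% of all). A match is a description of the letters and not a measured site. The lines below give the 100 bases before the start of E2F3 (chr6:20401779-20401878, plus strand), E2F1 (chr20:33686386-33686485, minus strand) and CDC25A (chr3:48188418-48188517, minus strand), with E2F words in capitals. The fourth line gives positions -230 to -81 of CDK4 (chr12:57752391-57752540, minus strand), with its 3 E-boxes in capitals. All are written 5′ to 3′ on the strand of the gene.
E2F3: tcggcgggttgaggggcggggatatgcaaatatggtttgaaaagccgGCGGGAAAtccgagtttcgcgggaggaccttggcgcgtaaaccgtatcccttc
E2F1: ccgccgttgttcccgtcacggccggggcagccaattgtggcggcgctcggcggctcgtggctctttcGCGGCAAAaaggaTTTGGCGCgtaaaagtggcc
CDC25A: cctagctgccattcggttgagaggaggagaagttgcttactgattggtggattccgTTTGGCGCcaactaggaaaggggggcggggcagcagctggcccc
CDK4: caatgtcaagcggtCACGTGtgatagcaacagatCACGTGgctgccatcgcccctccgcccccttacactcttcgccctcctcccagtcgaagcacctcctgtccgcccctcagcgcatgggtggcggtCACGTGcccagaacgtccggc

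Levels are normalized counts, that is, reads per gene divided by a size factor for each library. Library totals lay between 26435568 and 32085626 reads, and the 10 genes had between 554 and 33064 reads per library, so that counting alone gives a coefficient of variation between 4.25% and 0.55%. The spread between replicates of a group was between 0.771% and 11.5%. Cell identity was checked with a list of 10 melanocyte and melanoma markers, of which 8 had a mean of at least 10. SOX10 lay between 7900 and 17935 and MITF between 893 and 1994, whereas MLANA was at 0 in every library and TYR at 2.14 or less. The summed level of that list was 39816 to 42883 under DMSO, 30702 to 35971 under VHL-r and 29810 to 33280 under R4VPL3-1, so it was lower in both treated groups. Of that list SOX10 had by far the widest range over the libraries. CSPG4, with the next widest, lay between 13679.5 and 16176.1, so the sum does not stand for a change across the whole list. The sum of AXL, NGFR and SOX9, which mark dedifferentiated melanoma cells, was carried mostly by AXL at 9240.2 to 12114.5. This sum was also lower, at 11416 to 13301 under DMSO, 10278 to 11326 under VHL-r and 10195 to 11140 under R4VPL3-1. The summed level of 11 markers of epithelial, fibroblast, immune and endothelial cells, carried mostly by CD74 at 49642 to 57350, was 53402 to 56299, 50891 to 59627 and 51537 to 54693 in the same order. Of these, EPCAM, CDH1, PTPRC and PECAM1 did not pass 11.8 in any library, whereas the fibroblast markers COL1A1 (729 to 1635), LUM (95.6 to 164) and DCN (68.9 to 163) and the keratin KRT14 (224 to 365) were detected in all. The part of these markers in the results was not tested.

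After 2 h under VHL-r, CCND1, CDK4, CDK6 and CDKN1B fell and E2F3 rose, which makes 4 members lower and 1 higher of 10. In this comparison 19.8% of all genes tested were called, 10.3% higher and 9.51% lower. Under R4VPL3-1 the same 5 genes were called in the same directions and CCNE1 also rose, giving 4 lower and 2 higher, against 24.9% of all genes called, 13.1% higher and 11.8% lower. Genes were called by limma at a threshold of 0.05 on the p-value adjusted by the Benjamini-Hochberg method over all 15230 genes. The median log2 fold change of the 10 genes was -0.012 under VHL-r and -0.038 under R4VPL3-1, beside -0.0045 and -0.0063 over all genes tested. Under VHL-r the treated and DMSO libraries were fully separated for the 5 called members (34.3% of all genes tested, 17.1% higher and 17.2% lower), and under R4VPL3-1 for the 6 called members (38% of all genes, 19.1% higher and 18.9% lower). The 2 comparisons use the same DMSO libraries and are therefore not independent of each other. In these bulk libraries, fewer cells of a kind and less RNA per cell cannot be told apart.

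CCND1 (ENSG00000110092, chr11:69641156-69654474, plus strand) encodes cyclin D1 and had the highest count of the 10 genes in every library. It stood at 30024, 26086 and 24002 under DMSO, at 20585, 20618 and 19367 under VHL-r, and at 17632, 18664 and 17556 under R4VPL3-1. The 3 groups do not overlap: every DMSO library was above every VHL-r library, and these were above every R4VPL3-1 library. The means were 26704 ± 3058, 20190 ± 713 and 17951 ± 619 (SD, n = 3). CCND1 thus fell by 24.1% under VHL-r (log2 fold change -0.40, SE 0.059, limma adjusted p = 4.01e-05) and fell by 32.5% under R4VPL3-1 (-0.57, SE 0.059, adjusted p = 2.78e-07). DMSO replicate 1 was the highest library, and without it the fold changes were -0.31 and -0.48 on the log2 scale, both still called.

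CCND3 (ENSG00000112576, chr6:41934934-42050357, minus strand), which encodes cyclin D3, did not follow CCND1. It was at 2911, 2829 and 2738 under DMSO, at 2771, 2817 and 2707 under VHL-r, and at 2719, 2847 and 2447 under R4VPL3-1, with all groups overlapping. Its log2 fold changes were -0.031 (95% interval -0.14 to 0.081, limma adjusted p = 0.757) and -0.084 (-0.20 to 0.028, adjusted p = 0.287), neither called. The remaining D-type cyclin, CCND2, was at 0 in every library and was not tested. CCND1 made up 81.8% ± 1.2 of the CCND1 and CCND3 levels per kilobase of canonical transcript under DMSO, 77.7% ± 0.33 under VHL-r and 76.3% ± 1.0 under R4VPL3-1 (SD, n = 3). The share rests on the length used. With all annotated exons of a gene merged, CCND3 has 5761 in place of 2026 bases, and the share of CCND1 is higher. CCND1 and CCND3 then stood at 5609 and 491 per kilobase under DMSO, 4241 and 480 under VHL-r, and 3770 and 464 under R4VPL3-1.

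CDK6 (ENSG00000105810, chr7:92604921-92836573, minus strand), a kinase partner of the D-type cyclins, was at 6702, 5896 and 5599 under DMSO. It was at 5575, 4802 and 4875 under VHL-r and at 4945, 4979 and 5030 under R4VPL3-1. No treated library reached the lowest DMSO library, although the highest VHL-r library came close to it. CDK6 fell by 16.1% under VHL-r (log2 fold change -0.25, SE 0.061, limma adjusted p = 0.00450) and fell by 17.6% under R4VPL3-1 (-0.28, SE 0.061, adjusted p = 0.00158), and both calls held whichever single library was left out.

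CDK4 (ENSG00000135446, chr12:57747727-57756013, minus strand), the other kinase partner, changed less. Its normalized counts were 10260, 9916 and 9691 under DMSO, 8676, 9112 and 9438 under VHL-r and 8654, 9257 and 9012 under R4VPL3-1. The treated libraries all lie below the DMSO libraries, by a narrow margin under VHL-r. CDK4 fell by 8.87% under VHL-r (log2 fold change -0.13, SE 0.044, limma adjusted p = 0.0349) and fell by 9.87% under R4VPL3-1 (-0.15, SE 0.044, adjusted p = 0.0149). Both calls were fragile. The limma adjusted p under VHL-r became 0.137 without DMSO replicate 1, 0.0890 without DMSO replicate 2, 0.154 without VHL-r replicate 1 and 0.0939 without VHL-r replicate 2, and 0.0744 without the filter on low values, in a range from 0.0189 to 0.154 over all alternatives without a replicate block. Under R4VPL3-1 it became 0.0694 without DMSO replicate 1 and 0.0858 without R4VPL3-1 replicate 1, in a range from 0.0101 to 0.0858.

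CDKN1B (ENSG00000111276, chr12:12685498-12722369, plus strand) encodes the inhibitor p27. It stood at 1075, 1339 and 1159 under DMSO, at 795, 819 and 767 under VHL-r, and at 792, 834 and 770 under R4VPL3-1. The treated groups lie together, below every DMSO library. The means were 1191 ± 135, 794 ± 26.1 and 798 ± 32.5 (SD, n = 3). CDKN1B fell by 33.1% under VHL-r (log2 fold change -0.58, SE 0.072, limma adjusted p = 5.42e-06) and fell by 32.7% under R4VPL3-1 (-0.57, SE 0.072, adjusted p = 4.20e-06). Its decrease under VHL-r was the largest change of the 10 genes in that comparison. The inhibitor therefore moved in the same direction as CCND1.

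CCNE1 (ENSG00000105173, chr19:29811991-29824312, plus strand) encodes cyclin E1, an activator of CDK2, and had the lowest count of the 10 genes under DMSO. Its libraries stood at 588, 601 and 562 under DMSO, at 684, 665 and 585 under VHL-r, and at 700, 703 and 711 under R4VPL3-1. The R4VPL3-1 libraries lie above all others, while VHL-r replicate 3 lies within the DMSO range. CCNE1 rose by 20.8% under R4VPL3-1 (log2 fold change 0.27, SE 0.071, limma adjusted p = 0.00709). Under VHL-r the log2 fold change was 0.14 (95% interval -0.0079 to 0.29, adjusted p = 0.192), not called. Without VHL-r replicate 3 it was 0.21 with a limma adjusted p of 0.0480, in a range from 0.0480 to 0.480 over the alternatives without a replicate block.

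CCNE2 (ENSG00000175305, chr8:94879770-94896678, minus strand), which encodes cyclin E2, was at 2278, 2363 and 2174 under DMSO, at 2670, 2464 and 2303 under VHL-r, and at 2330, 2505 and 2320 under R4VPL3-1. All groups overlap. The log2 fold changes were 0.12 under VHL-r (95% interval 0.0061 to 0.24, limma adjusted p = 0.142) and 0.070 under R4VPL3-1 (-0.048 to 0.19, adjusted p = 0.417), neither called. Under VHL-r, CCNE2 was called without VHL-r replicate 3 (log2 fold change 0.18, limma adjusted p = 0.0396), in a range from 0.0396 to 0.493.

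CDC25A (ENSG00000164045, chr3:48157146-48188417, minus strand), the phosphatase that activates CDK2, had means of 4433 ± 283 under DMSO, 4450 ± 196 under VHL-r and 4452 ± 184 under R4VPL3-1 (SD, n = 3). Its log2 fold changes were 0.0066 (95% interval -0.10 to 0.11, limma adjusted p = 0.956) and 0.0075 (-0.10 to 0.12, adjusted p = 0.942). Neither interval reaches a change of the size called for CDK4.

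E2F1 (ENSG00000101412, chr20:33675477-33686385, minus strand), the E2F factor best known for inducing S phase genes, stood at 3548, 3552 and 3357 under DMSO, at 3691, 3682 and 3210 under VHL-r, and at 3766, 3910 and 3131 under R4VPL3-1. Replicate 3 was the lowest library of each group, as it was for CCND1, CCND3, CCNE2 and CDC25A, and the groups of E2F1 overlap. The log2 fold changes were 0.015 (95% interval -0.13 to 0.16, limma adjusted p = 0.919) and 0.041 (-0.10 to 0.18, adjusted p = 0.719), neither called.

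E2F3 (ENSG00000112242, chr6:20401879-20493714, plus strand), which like E2F1 acts as a transcriptional activator, rose in both treated groups. It was at 2018, 1919 and 1925 under DMSO, at 2772, 2829 and 2597 under VHL-r, and at 3063, 2896 and 2903 under R4VPL3-1. The 3 groups are separate, with the lowest VHL-r library far above the highest DMSO library. E2F3 rose by 39.8% under VHL-r (log2 fold change 0.48, SE 0.049, limma adjusted p = 3.47e-07) and by 51.1% under R4VPL3-1 (0.60, SE 0.049, adjusted p = 1.03e-08), the largest change of the 10 genes under R4VPL3-1. The ratio of E2F3 to E2F1, per kilobase of transcript, was 0.300 ± 0.0095 under DMSO, 0.415 ± 0.016 under VHL-r and 0.442 ± 0.050 under R4VPL3-1 (SD, n = 3). Of the 3 genes with an E2F word in the promoters printed above, E2F3 was called and E2F1 and CDC25A were not. No 100-base window of the transcripts of the 10 genes occurred in a transcript of another gene in the same orientation. CDK4, CCNE2 and CCND1 shared 28.4%, 33.4% and 6.35% of such windows with TSPAN31, INTS8 and LTO1 on the opposite strand, and the reads were counted by strand.

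**Figure D1:**
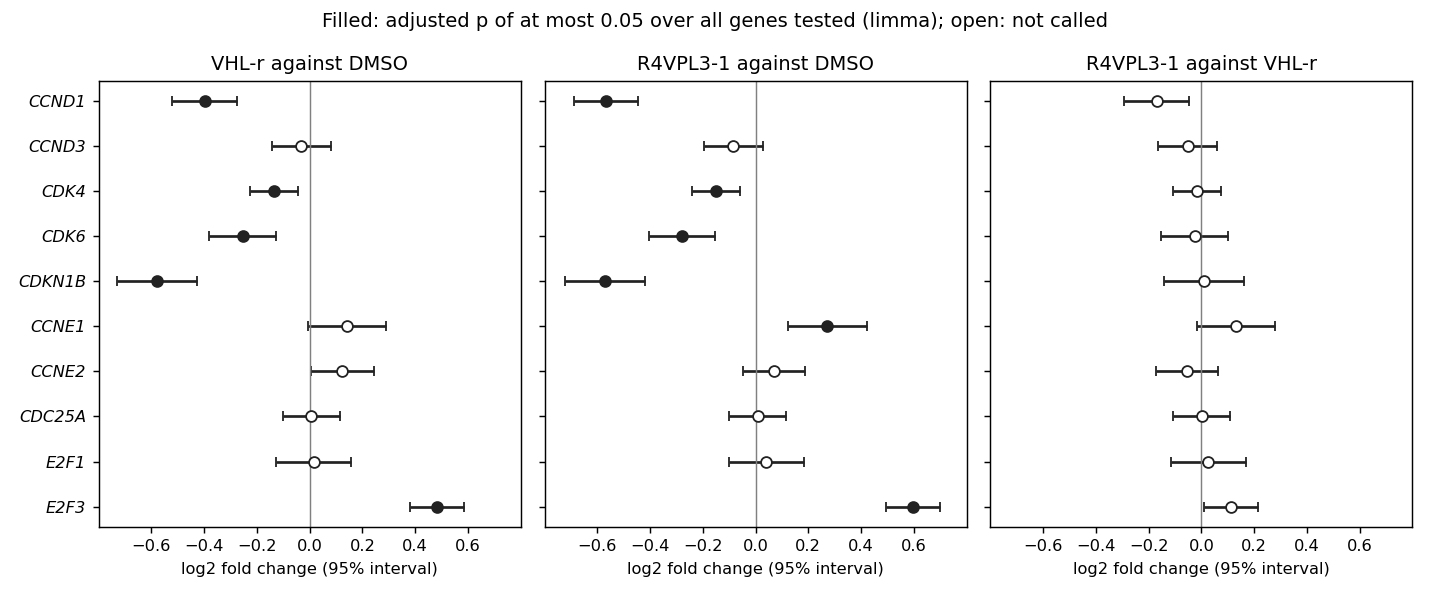
Log2 fold change (horizontal axes) of each gene (vertical axis) in the 3 comparisons, with 95% intervals from limma. Filled points have an adjusted p of at most 0.05. CCND1, CDK4, CDK6 and CDKN1B are filled on the left of 0 and E2F3 on the right in both comparisons with DMSO, CCNE1 is filled under R4VPL3-1, and no point is filled in R4VPL3-1 against VHL-r.

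The comparison of R4VPL3-1 with VHL-r asks what the full molecule changed beyond its VHL-binding part, at the same dose and time. By limma none of the 10 genes was called, where 1.87% of all genes tested were called, 1.14% higher and 0.729% lower, and edgeR and DESeq2 on the recovered reads also called 0. At an unadjusted p under 0.05 there were 2 genes, CCND1 and E2F3, and 9.90% of all genes tested. CCND1 was lower under R4VPL3-1 by a log2 fold change of -0.17 (95% interval -0.29 to -0.047, limma unadjusted p = 0.00914, adjusted p = 0.221). E2F3 was at 0.11 (95% interval entirely above 0, up to 0.22, unadjusted p = 0.0331, adjusted p = 0.422) and CCNE1 at 0.13 (-0.017 to 0.28, adjusted p = 0.594). For these 3 genes the libraries of both treatments did not overlap, CCND1 lower and the others higher under R4VPL3-1. Over all genes tested 14.1% were separated in this way, 6.99% higher and 7.11% lower. The CCND1 difference was called only without DMSO replicate 1 (adjusted p = 0.0492, in a range from 0.0492 to 0.606 over the alternatives without a replicate block), a library that enters the comparison through the shared estimate of spread.

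The other genes lay near 0 in this comparison, and the 95% intervals are given for each gene on its own, without a test of equivalence. CDKN1B was at 0.0083 (95% interval -0.14 to 0.16), CDK4 at -0.016 (-0.11 to 0.075) and CDK6 at -0.025 (-0.15 to 0.10). CCND3 was at -0.052 (-0.16 to 0.059), CCNE2 at -0.054 (-0.17 to 0.064), CDC25A at 0.00093 (-0.11 to 0.11) and E2F1 at 0.027 (-0.12 to 0.17). The interval of CDKN1B lies well inside the decrease of this gene against DMSO, as does that of CDK6 by a smaller margin. These intervals do not show that the compounds act alike on these genes.

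Compared per kilobase, using the length of the Ensembl canonical transcript, CCND1 and CDK4 stood far above the other 8 genes. Under DMSO CCND1 was first, at 6301 ± 722 normalized counts per kilobase, before CDK4 at 5338 ± 154 (SD, n = 3), and their libraries did not overlap. Under VHL-r both were level, CDK4 at 4866 ± 205 and CCND1 at 4764 ± 168, with overlapping libraries. Under R4VPL3-1 CDK4 came first at 4812 ± 163, above every CCND1 library (4236 ± 146). Next under DMSO came CCND3 (1395), E2F1 (1296), CDC25A (1153) and CCNE2 (850), then CDK6 (520), CDKN1B (494), E2F3 (388) and CCNE1 (299), of which only the neighbours CDK6 and CDKN1B overlapped. In both treated groups E2F3 stood seventh, above CDK6, and CDKN1B last. CCND3 and E2F1 overlapped in both treated groups, and under VHL-r E2F1 also overlapped with CDC25A, and CCNE1 with CDKN1B. The order rests on the length used: with all annotated exons of a gene merged, CCND1 was first in every group, also in the treated groups, where it stood at 4241 before CDK4 at 2933 under VHL-r and at 3770 before 2901 under R4VPL3-1, so that the change of order between CCND1 and CDK4 was seen with the canonical lengths only. CDKN1B was then last in every group, at a length of 9255 in place of 2411 bases, and CCND3 was seventh.

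Sums within each library set D-type against E-type cyclin RNA. CCND1 made up most of the D-type sum, so this sum and the ratio below are not independent of its fall. The D-type sum (CCND1 and CCND3) was 7696 ± 764 normalized counts per kilobase under DMSO, 6129 ± 194 under VHL-r and 5554 ± 234 under R4VPL3-1. The sum of CDK4 and CDK6 was 5858 ± 202, 5302 ± 174 and 5239 ± 164, and that of CCNE1 and CCNE2 was 1148 ± 45.6, 1257 ± 94.1 and 1253 ± 38.3 (SD, n = 3). The ratio of D-type to E-type cyclin RNA was 7.39, 6.34 and 6.37 in the DMSO libraries, 4.62, 4.96 and 5.09 in the VHL-r libraries and 4.47, 4.48 and 4.35 in the R4VPL3-1 libraries. Each group lies below the one before it without overlap. With merged exon lengths the ratio had other values but the same order, at 8.09 ± 0.79 under DMSO, 5.73 ± 0.27 under VHL-r and 5.11 ± 0.064 under R4VPL3-1 (SD, n = 3). These ratios were formed after the fold changes were seen and are given without a test, and an exact permutation test of 3 against 3 libraries could not give a p under 0.1.

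The ratio of CCND1 to CDKN1B, in contrast, did not separate the treatments from DMSO. It was 15.9, 11.1 and 11.8 under DMSO, 14.7, 14.3 and 14.4 under VHL-r and 12.8 ± 0.16 under R4VPL3-1 (mean ± SD, n = 3). The DMSO libraries span all treated libraries, and both genes were lower in the treated groups.

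Beyond the 10 genes, 90 genes of the same pathway were grouped in lists by function, of which 87 were tested. Under VHL-r 8 were called higher and 8 lower, under R4VPL3-1 10 higher and 9 lower, and between the treatments 1 higher and 1 lower, beside the shares of all genes given above. The median log2 fold changes over the 87 genes were 0.0098, -0.0039 and -0.026.

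Among the other CDK inhibitors, 5 of 6 were tested, and 2 rose and 1 fell in both comparisons with DMSO. Over all genes tested, 10.3% were called higher and 9.51% lower under VHL-r, and 13.1% and 11.8% under R4VPL3-1. CDKN1A (p21), an inhibitor of CDK2 complexes, was at 3532, 3215 and 3580 under DMSO, at 4066, 4294 and 4792 under VHL-r and at 4389, 4461 and 4440 under R4VPL3-1. It rose by 0.35 and 0.37 on the log2 scale (limma adjusted p = 0.000101 and 4.04e-05), opposite in sign to CDKN1B. The INK4 inhibitors bind CDK4 and CDK6. Among them CDKN2C (p18) fell, from a mean of 2248 to 1725 and 1661 (log2 fold changes -0.38 and -0.44, adjusted p = 2.42e-05 and 2.97e-06). CDKN2D (p19) rose, from 403 to 558 and 488 (0.47 and 0.28, adjusted p = 0.000264 and 0.0169), the latter not called without DMSO replicate 2 (0.106) or R4VPL3-1 replicate 2 (0.0757). CDKN2B had a mean of 0.103 over all libraries and was not tested.

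The retinoblastoma protein and its relatives did not pass the test: RB1 had means of 4130, 4148 and 4155 under DMSO, VHL-r and R4VPL3-1, and RBL1 and RBL2 were not called in any comparison either. Of 11 pocket protein, E2F and DP genes, 1 was called lower under VHL-r (9.51% of all genes tested) and 2 under R4VPL3-1 (11.8% of all). E2F8, a repressor of the E2F family, was at 864, 776 and 784 under DMSO, at 578, 543 and 507 under VHL-r and at 525, 499 and 439 under R4VPL3-1. Its log2 fold changes were -0.57 and -0.73 (limma adjusted p = 2.07e-05 and 6.35e-07), both lower, in the opposite direction to E2F3. E2F4, which mostly represses in resting cells, fell under R4VPL3-1 (-0.21, adjusted p = 0.00154).

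Of the 7 genes of CDK2, the other CDC25 phosphatases, WEE1 and the CDK-activating kinase, limma called 0 in any comparison, as did edgeR and DESeq2. Over all genes tested, limma called 19.8% under VHL-r, 24.9% under R4VPL3-1 and 1.87% between the treatments. In limma 1 of the 7 had an unadjusted p under 0.05, lower under R4VPL3-1 (35.5% of all genes tested, either direction). CDK2 itself had means of 4422, 4257 and 4150. Of 11 parts of the ubiquitin ligases that degrade G1 regulators, 1 was called in each comparison with DMSO, beside the same shares of all genes. In both it was FBXO31, which is reported to target cyclin D1. Its mean rose from 337 to 466 under VHL-r and 454 under R4VPL3-1 (log2 fold changes 0.47 and 0.43, limma adjusted p = 0.000573 and 0.000966). AMBRA1 (0.060 and -0.0039) and FBXO4 (-0.16 and -0.15) of the same list were not called.

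Downstream, the 24 E2F target genes of S phase had list medians of -0.014 under VHL-r and -0.0016 under R4VPL3-1. Of them 2 were called under VHL-r (19.8% of all genes tested) and 1 under R4VPL3-1 (24.9% of all). They were PRIM1 (primase, log2 fold change -0.25, limma adjusted p = 0.0107) and PCNA (the DNA polymerase clamp, 0.12, adjusted p = 0.0388) under VHL-r and SLBP (histone mRNA binding, 0.18, adjusted p = 0.00680) under R4VPL3-1. Each was lost on leaving out single libraries. PRIM1 was not called without DMSO replicate 1 (0.0522) or VHL-r replicate 3 (0.0581), and SLBP not without DMSO replicate 3 (0.0535). PCNA was not called without DMSO replicate 2 or 3, any 1 of the VHL-r replicates or R4VPL3-1 replicate 2 (0.0518 to 0.156).

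Of 18 G2 and mitosis genes 17 were tested, and 2 rose under VHL-r and 3 under R4VPL3-1. Over all genes tested 10.3% and 13.1% were called higher and 9.51% and 11.8% lower. Limma, edgeR and DESeq2 called 0 of the list lower in either, and 0 and 1 were lower at an unadjusted p under 0.05. In R4VPL3-1 against VHL-r limma called none of the list. There, 4 were lower and 0 higher at an unadjusted p under 0.05 (9.90% of all genes tested). CENPE, a mitotic kinesin, rose in both comparisons with DMSO (log2 fold changes 0.22 and 0.21, limma adjusted p = 0.00234 and 0.00282). KIF20A, another mitotic kinesin, rose under VHL-r (0.16, adjusted p = 0.0334), but not without DMSO replicate 1 (0.155) or 2 (0.0541) or VHL-r replicate 2 (0.0844) or 3 (0.133). The proliferation marker MKI67 rose under R4VPL3-1 (0.25, adjusted p = 0.0165), but not without DMSO replicate 2 (0.106) or R4VPL3-1 replicate 1 (0.0661) or 2 (0.0781). Limma's robust option (0.143) and DESeq2 (0.117) did not call it. With the replicate number as a block, limma (5e-04) and DESeq2 (7.0e-05) called MKI67. CENPF, a kinetochore protein, also rose under R4VPL3-1 (0.14, adjusted p = 0.0193), but not without DMSO replicate 2 (0.112) or R4VPL3-1 replicate 2 (0.0532).

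Among the lists, the largest changes lay in that of 12 transcription factors known to act on G1 genes. Under VHL-r 2 rose and 5 fell, beside 10.3% of all genes tested called higher and 9.51% lower. Under R4VPL3-1 3 rose and 6 fell, beside 13.1% higher and 11.8% lower. The lists were chosen with earlier results of these data known, so this ranking of lists is not a test. MYC, an activator of CDK4 transcription, was at 1253, 1254 and 1049 under DMSO, at 379, 430 and 408 under VHL-r and at 320, 401 and 321 under R4VPL3-1. Its log2 fold changes were -1.54 and -1.77 (limma adjusted p = 1.86e-10 and 9.80e-12). JUN, an AP-1 factor, was at 2301, 1813 and 1853 under DMSO and at 1195, 1064 and 1229 under VHL-r, but at 23741, 19158 and 12252 under R4VPL3-1. Its log2 fold changes were -0.77 under VHL-r, 3.16 under R4VPL3-1 and 3.93 between them (adjusted p = 0.000513, 9.51e-13 and 1.14e-13), the first not called with limma's robust option (0.0811). JUN was thus clearly different between the compounds, where none of the 10 G1 genes was called.

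Another AP-1 factor, JUNB, rose under both compounds, from a mean of 2429 to 4419 under VHL-r and 4027 under R4VPL3-1 (log2 fold changes 0.86 and 0.73, limma adjusted p = 1.11e-07 and 6.65e-07), and was not called between them (-0.13, adjusted p = 0.691). ETS2, a factor of the MAPK pathway, fell under R4VPL3-1 against DMSO (-0.35, limma adjusted p = 6.46e-05) and was not called under VHL-r (-0.11, adjusted p = 0.216). It was also lower under R4VPL3-1 than under VHL-r (-0.25, adjusted p = 0.0185). The latter call was lost on leaving out VHL-r replicate 2 (0.0999), VHL-r replicate 3 (0.0637), R4VPL3-1 replicate 1 (0.165) or R4VPL3-1 replicate 2 (0.0587). ETS1 (-0.35 and -0.39), TCF7L2 (-0.21 and -0.40) and SP1 (-0.17 and -0.23) were called lower by limma in both comparisons with DMSO. These 3 were named after their values were seen. FOXO1, an activator of CDKN1B, was at low counts, with means of 31.8 under DMSO and 18.7 under R4VPL3-1 (-0.77, adjusted p = 0.0334). It was not called without any 1 of the DMSO replicates or R4VPL3-1 replicate 1 or 2 (0.0561 to 0.166), nor by DESeq2 (0.108). FOXO3, a related factor at higher counts that was named after its values were seen, was called in the opposite direction in both comparisons with DMSO (log2 fold changes 0.37 and 0.33, limma adjusted p = 0.00138 and 0.00327).

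For the member with the largest change in each comparison, the genes with the most similar pattern were taken by the Euclidean distance between group means on the log2 scale, each gene centred over the 3 groups of 9 libraries. Nearest to CDKN1B were EIF4A1P2, MID1IP1 and INAVA, at distances between 0.0067 and 0.0096. MID1IP1 was at means of 894, 603 and 606 under DMSO, VHL-r and R4VPL3-1, with log2 fold changes of -0.57 and -0.56 (limma adjusted p = 8.45e-06 and 7.47e-06). EIF4A1P2, a pseudogene at a mean of 18.9 under DMSO, was not called, and INAVA was called in both comparisons, but not without DMSO replicate 2 (0.0739 and 0.0753), VHL-r replicate 2 (0.0661, VHL-r) or R4VPL3-1 replicate 1 (0.0544, R4VPL3-1).

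Nearest to CCND1 were RPL7AP50, TMPO-AS1 and MAGEF1, at distances between 0.0089 and 0.012. MAGEF1 was at means of 1246, 937 and 843 (log2 fold changes -0.41 and -0.56, limma adjusted p = 4.58e-05 and 5.32e-07), and TMPO-AS1, an antisense RNA, at 320, 242 and 217 (-0.40 and -0.56, adjusted p = 0.00388 and 0.000135). RPL7AP50, a pseudogene whose reads may be shared with its parent gene, was called only under R4VPL3-1 (-0.56, adjusted p = 0.0424), and not without DMSO replicate 2 (0.220), VHL-r replicate 2 (0.0549) or R4VPL3-1 replicate 1 (0.204) or 2 (0.106). Nearest to E2F3 were ESPNL, LINC01535 and LINC01337, at distances between 0.0020 and 0.0096. All 3 were weakly expressed, with DMSO means of 11.2, 31.2 and 15.6, and apart from LINC01535 under R4VPL3-1 (0.61, adjusted p = 0.0451) none was called. That call was lost without any 1 of the DMSO replicates 1 and 2, the VHL-r replicates 2 and 3 and the R4VPL3-1 replicates (0.0507 to 0.222).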

How the data were processed

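Poly(A) RNA of 9 A375R libraries was made into stranded libraries and sequenced as single reads of 100 bases. Per the methods, the authors used STAR for alignment (GRCh38, Ensembl annotation) and counted reads per gene by strand with htseq-count. The deposited values are a signal: reads per gene divided by a DESeq2 (version 1.36.0, per the submitters' processing notes) size factor for each library, rounded to 2 decimals. Size factors make the values relative to the bulk of genes, so that a change of total RNA per cell would not show in them.

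Reads were recovered from the step between low values, and 99.99% or more of nonzero values in each library were whole multiples of it, within rounding and 0.02 of 1 read. Recovered totals were 26435568 to 32085626 reads per library, which gives the counting precision stated with the levels. Since the values are normalized, log2(value + 1) was tested with limma 3.58.1 in R 4.3.3 (trend option), using treatment as the single factor over the 9 libraries. Genes under a mean of 10 were left out, which kept 15230, and p-values were adjusted by Benjamini-Hochberg. A fold change is on the log2(value + 1) scale. With recovered reads, edgeR 4.0.16 called 3034, 3857 and 297 genes in VHL-r against DMSO, R4VPL3-1 against DMSO and R4VPL3-1 against VHL-r, beside 3016, 3792 and 285 by limma. P-values set the difference between groups against the spread between these libraries.

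Groups came from the sample titles. The members and the lists of related genes and markers were chosen with earlier results of these data known. The text names all 10 members, up to 3 called genes with the largest change per list and comparison, untested cyclins, inhibitors and pocket proteins, and the 3 genes nearest in pattern to the most changed member of each comparison. Levels per kilobase used Ensembl canonical transcript lengths from GENCODE 44, in which the coordinates of all 10 genes were as deposited. Alternatives were pseudocounts of 0.1 and 5, other filters and scalings, limma's robust option, edgeR, DESeq2 1.42.0, a replicate block, the 6 libraries compared alone, an adjusted p of at most 0.01 and leaving out each library.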

Additional observations from a re-analysis of the deposited data

How the results depend on the processing

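CCND1, CDK6, CDKN1B and E2F3 in both comparisons with DMSO, and CCNE1 under R4VPL3-1, kept their direction and call under all alternatives run, whereas both CDK4 calls did not, as described with that gene. The number of members called was between 4 and 7 under VHL-r, between 5 and 6 under R4VPL3-1, and between 0 and 1 in R4VPL3-1 against VHL-r on leaving out single libraries, the 1 being CCND1 without DMSO replicate 1. The genes called over the whole table went from 3016 to 1885 under VHL-r and from 3792 to 2494 under R4VPL3-1 at an adjusted p of at most 0.01, by the construction of that threshold. In R4VPL3-1 against VHL-r they were 285, and between 182 and 358 on leaving out single libraries, with 182 without R4VPL3-1 replicate 1. The related cell cycle genes called there were 2, and between 1 and 2 on leaving out single libraries (1 where VHL-r replicate 2 or 3, or R4VPL3-1 replicate 1 or 2, was absent), and 1 at an adjusted p of at most 0.01. Other scalings moved the median of all genes by at most 0.0177 on the log2 scale.

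Direction changed only for fold changes near 0 that were not called, on leaving out single libraries. In VHL-r against DMSO the values ran from -0.0315 to 0.057 for CDC25A and from -0.0193 to 0.0813 for E2F1. In R4VPL3-1 against DMSO the values ran from -0.0306 to 0.0579 for CDC25A and from -0.0209 to 0.1392 for E2F1. In R4VPL3-1 against VHL-r the values ran from -0.0999 to 0.0092 for CCND3, from -0.1059 to 5e-04 for CCNE2, from -0.0479 to 0.0128 for CDK4, from -0.0647 to 0.043 for CDK6, from -0.0233 to 0.0343 for CDKN1B, from -0.0357 to 0.0353 for CDC25A and from -0.0398 to 0.1244 for E2F1.

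Across genes, deviations of same-numbered libraries correlated weakly, between -0.00559 and 0.121 (9 pairs). Those of differently numbered libraries correlated between -0.148 and 0.0982 (18 pairs). These ranges overlap, so they do not settle whether the replicate numbers pair the libraries. With the number as a replicate block, limma called 3451, 4241 and 389 genes in the 3 comparisons and 5, 6 and 0 members, and DESeq2 2539, 3266 and 309 genes and the same numbers of members.

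At 554 reads, the lowest count of a member (CCNE1 under DMSO), the counting error was 4.25%. The spread of CCNE1 between replicates was 3.42% under DMSO, 8.19% under VHL-r and 0.771% under R4VPL3-1. The median spread over the 10 genes and 3 groups was 4.15%. CDKN2B and CCND2 were too low to test. The values cover 1 cell line, 1 dose and 1 time.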

Other observations

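NUSAP1, a microtubule-binding protein of mitosis that stood in the list of G2 and mitosis genes, was the only gene of that list below the filter. Its mean was 0.858 normalized counts over the 9 libraries, while CENPF of the same list had a mean of 10180 under DMSO. NUSAP1 was singled out after its values were seen, and the cause was not tested.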
